A study of Homo sapiens with 6 samples.

Results

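RAB proteins are small GTPases of vesicle traffic, and 64 of the 60643 genes in the expression table carry a RAB symbol made of a number and at most 1 letter. All 64 symbols occurred in a single row each, so no row was dropped. The symbols alone chose the members, but the family was picked for description because RAB38 was among the genes that fell most in this data set. RAB38 is therefore given by its values without a test. The counts of members that changed are likewise a description, from which nothing about the family is read.

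The data came from HCT116, an established human colorectal cancer cell line, in which doxycycline switches on a hairpin RNA (shRNA) that targets CAPG, the gene of a protein that caps actin filaments. The treated cells received doxycycline at 100 ng/µl, the unit as labelled, for 3 days and are labelled as CAPG knockdown (3 libraries). The untreated cells are labelled wild type, although their sample names carry the same shRNA (3 libraries). The labelled source tissue is the rectum, while the cell type label names a colon cancer cell. The labels do not say whether the line is a clone or whether the replicates were separate cultures, so the spread behind each p-value is that of 3 libraries a group and may be technical. The drug and the hairpin cannot be told apart, because no library here received the drug without the hairpin. All libraries carry the name of a single hairpin. Loss of CAPG and an effect of that hairpin on other genes therefore cannot be told apart either.

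A RAB protein cycles between a GDP-bound form in the cytosol and a GTP-bound form on a membrane. Guanine nucleotide exchange factors (GEFs) load GTP, GTPase-activating proteins (GAPs) end the active state, and effectors such as tethers and motor adaptors bind the active form to dock, fuse or move the vesicle. Each member marks a compartment, for example RAB1 proteins the path between endoplasmic reticulum (ER) and Golgi, RAB5 proteins early endosomes, RAB7A late endosomes, RAB11 proteins recycling endosomes, and RAB32 and RAB38 the lysosome-related organelles, of which the melanosome is the best known.

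The targeted gene checked the labels, with CAPG at 8.18, 8.03 and 9.97 FPKM (sequenced fragments relative to transcript length and depth) in the libraries with doxycycline, against 61.1, 56.9 and 53.7 FPKM in those without. The exact permutation test, two-sided, gave p = 0.1, the smallest that 3 against 3 libraries can give. Estimated depth was 13600000 to 18700000 fragments per library, at which 3 fragments in a transcript of 1 kb correspond to 0.16 to 0.221 FPKM, a limit that covers counting error only. Replicate 3 with doxycycline had a sum of 586911 FPKM, while the other 5 libraries summed to 521832 to 536037. On the second principal component it lay apart from replicates 1 and 2 (-17.19 against 12.24 and 13.05). The untreated libraries were also spread there, at -14.05, -2.6 and 8.55 for replicates 1, 2 and 3. Of 8 intestinal epithelial markers 6 reached 1 FPKM, with summed levels of 1867 to 2202 FPKM with doxycycline and 1658 to 1860 FPKM without. EPCAM, an epithelial adhesion protein gene, rose, at 241 ± 20 FPKM with and 190 ± 8.12 FPKM without doxycycline (log2 0.34 on log2(FPKM + 1), limma adjusted p = 0.0401). That call was kept without replicate 3 of the treated group and lost without each of the other 5 libraries in turn (limma adjusted p up to 0.139). Of 8 endothelial markers 0 reached 1 FPKM, and of 8 fibroblast markers 1 did so (COL1A1), with COL1A2 and DCN listed at 0.

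RAB38 was the member with the largest change. It encodes a GTPase that delivers enzymes to melanosomes and other lysosome-related organelles (ENSG00000123892, chromosome 11, 88113251 to 88175443, GRCh38). Its level was 3.12, 3.11 and 3.46 FPKM in the libraries with doxycycline, against 12.3, 11.8 and 11.4 FPKM in those without. The groups lay far apart, and the level with doxycycline was 27.3% of that without (3.23 ± 0.198 against 11.8 ± 0.463 FPKM, SD, n = 3 each). The log2 change, on the scale of log2(FPKM + 1) used for all log2 changes here, was -1.60, and 4 of the 14475 tested genes had a lower one. It stayed between -1.64 and -1.57 when any 1 library was left out. In these bulk libraries, fewer cells with a transcript and less transcript per cell cannot be told apart.

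The nearest relatives of RAB38 are RAB32 and RAB29. RAB32 was listed at 0 in all 6 libraries. RAB29, which acts at the Golgi and at stressed lysosomes and recruits the kinase LRRK2, was at 9.28, 9.05 and 8.98 FPKM in the libraries with doxycycline, against 11.2, 13 and 13.3 FPKM in those without (ENSG00000117280, chromosome 1, 205767986 to 205775482). All 3 libraries with doxycycline were below all 3 without. RAB29 fell by 0.42 on the log2 scale (SE 0.09, limma adjusted p = 0.0308). That call was lost in 5 of 6 leave-one-out fits, each without 1 library, and kept without replicate 1 of the untreated group, with limma adjusted p between 0.0391 and 0.13. Summed over the subfamily, the level was 12.3 ± 0.154 FPKM with doxycycline and 24.3 ± 0.708 FPKM without. Most of that difference was RAB38, which the choice of the family rests on, and without it the sum is the RAB29 level, at 9.10 ± 0.16 FPKM with and 12.5 ± 1.12 FPKM without doxycycline.

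**Figure D1:**
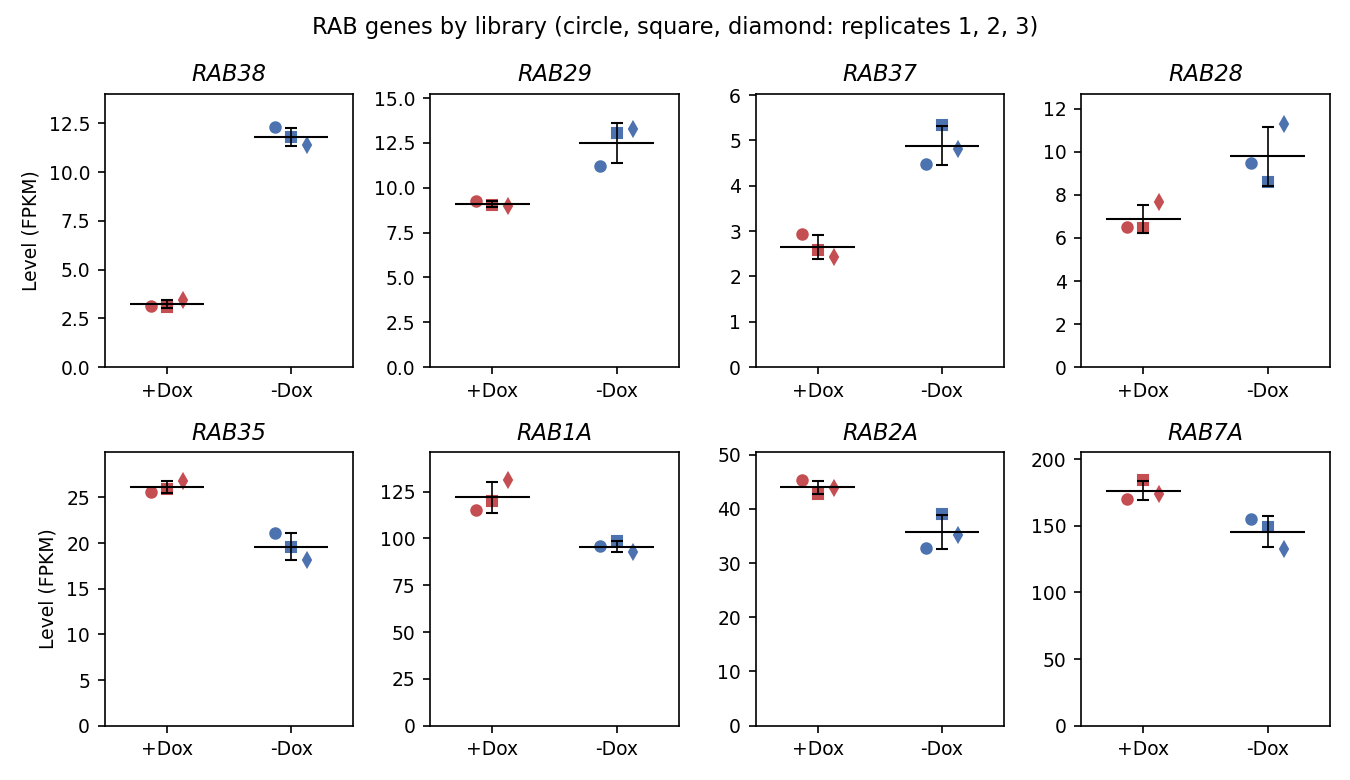
Level in FPKM of 8 RAB genes in each library, with doxycycline (+Dox, red) on the left and without (-Dox, blue) on the right of each panel. Markers are single libraries, lines the group mean and bars the SD (n = 3). The groups do not overlap in any of the 8 panels, and RAB38 has the widest relative gap, at 3.23 FPKM with and 11.8 FPKM without doxycycline. The 8 genes are a selection, since 28 of the 48 tested members other than RAB38 had groups that overlapped. Of all tested genes, 34.5% had groups without overlap.

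Genes that serve RAB38 and RAB32 were looked up in a list of 21 genes, which held their exchange factor BLOC-3, their effector ANKRD27 (VARP), the complexes BLOC-1, BLOC-2 and AP-3 of lysosome-related organelle transport, and the LRRK kinases. Of the 20 tested genes 3 fell and 0 rose, where 4.77% of all 14475 tested genes fell and 3.69% rose, and the median log2 change was 0.02, against -0.003 for all tested genes. ANKRD27, which binds active RAB32 and RAB38 and is also an exchange factor for RAB21, was at 7.78, 6.83 and 6.45 FPKM in the libraries with doxycycline, against 14.4, 15 and 13.5 FPKM in those without. Every library with doxycycline was far below every library without, and ANKRD27 fell by 0.94 on the log2 scale (SE 0.10, limma adjusted p = 0.00228). Its call was kept in all 6 leave-one-out fits, with limma adjusted p up to 0.0162.

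The other genes of that list that fell were BLOC1S4, a BLOC-1 subunit, and HPS3, a BLOC-2 subunit. BLOC1S4 was at 6.09, 5.54 and 6.12 FPKM with doxycycline, against 9.6, 9.01 and 8.14 FPKM without (log2 -0.52, SE 0.10, limma adjusted p = 0.0184). HPS3 was at 7.40, 6.93 and 7.10 FPKM with doxycycline, against 8.81, 9.82 and 10.5 FPKM without (log2 -0.39, SE 0.10, limma adjusted p = 0.0389). Neither gene had overlapping groups. The BLOC1S4 call was lost without replicate 2 of the treated group and without replicates 1 and 2 of the untreated group (limma adjusted p up to 0.0849), and the HPS3 call in all 6 leave-one-out fits (up to 0.143). The BLOC-2 genes HPS5 (log2 -0.08, limma adjusted p = 0.608) and HPS6 (log2 0.08, limma adjusted p = 0.6655) did not pass the test, and their groups overlapped. The BLOC-3 genes did not pass it either. HPS1 was at 17.3 ± 1.58 FPKM with and 15.5 ± 1.29 FPKM without doxycycline (limma adjusted p = 0.346). HPS4 was at 10 ± 1.2 FPKM with and 10.3 ± 0.401 FPKM without doxycycline (limma adjusted p = 0.86).

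Markers of melanocytes, the cells in which RAB38 is best known, were low. Of 8 such markers 3 reached 1 FPKM in any library and TYR, the tyrosinase gene, was listed at 0 in all 6. Their summed level was 4.47 to 5.73 FPKM with doxycycline and 6.72 to 7.5 FPKM without. PMEL, a melanosome fibril protein gene, was at 2.57 ± 0.225 FPKM with and 4.35 ± 0.316 FPKM without doxycycline (log2 -0.58, limma adjusted p = 0.0166), and its call was lost without replicate 2 of either group (up to 0.0701). MITF, the melanocyte transcription factor gene, was at 1.27 ± 0.171 FPKM with and 1.91 ± 0.113 FPKM without doxycycline (limma adjusted p = 0.0937). Their part in the RAB38 values was not tested. Of 8 leukocyte markers 2 reached 1 FPKM, with summed levels of 3.23 to 3.81 FPKM with and 5.40 to 5.72 FPKM without doxycycline, and CD3E was listed at 0. CD68, a macrophage lysosome protein gene that other cells also express, fell, at 2.01 ± 0.38 FPKM with and 3.94 ± 0.476 FPKM without doxycycline (log2 -0.72, limma adjusted p = 0.0167), a call lost without replicate 2 of either group (up to 0.0762). The part of these markers in the RAB values was not tested.

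Across the family, 49 of the 64 members had at least 1 FPKM in at least 3 libraries and were tested. Of the 48 other than RAB38, 2 rose (RAB35 and RAB1A), 3 fell (RAB37, RAB28 and RAB29) and 43 did not pass the test. Among all 14475 tested genes 8.46% changed, 3.69% up (534 genes) and 4.77% down (691 genes). With the libraries scaled to equal sums these counts over all genes were 458 up and 890 down, and after a correction for transcript length and GC content 1509 up and 1216 down. When genes of low values were not filtered out, 62 members other than RAB38 were tested, and 0 rose and 0 fell. In that fit 53 of all genes rose and 100 fell. Of the 48 members, 7 rose and 5 fell after the correction. In the leave-one-out fits 0 to 2 members did so in each direction, where 76 to 412 of all genes rose and 147 to 588 fell. Without replicate 3 with doxycycline, the library that lay apart, RAB35 and RAB1A rose and RAB37 and RAB26 fell. In 10 of the 48 members the libraries with doxycycline were all higher and in 10 all lower, where 17% and 17.5% of all tested genes were so. The median log2 change of the 48 was 0.10. The 15 members that were not tested reached at most 1.03 FPKM in any library and were RAB3C, RAB6C, RAB6D, RAB7B, RAB9B, RAB19, RAB32, RAB33A, RAB34, RAB39A, RAB39B, RAB40A, RAB41, RAB42 and RAB44.

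**Figure D2:**
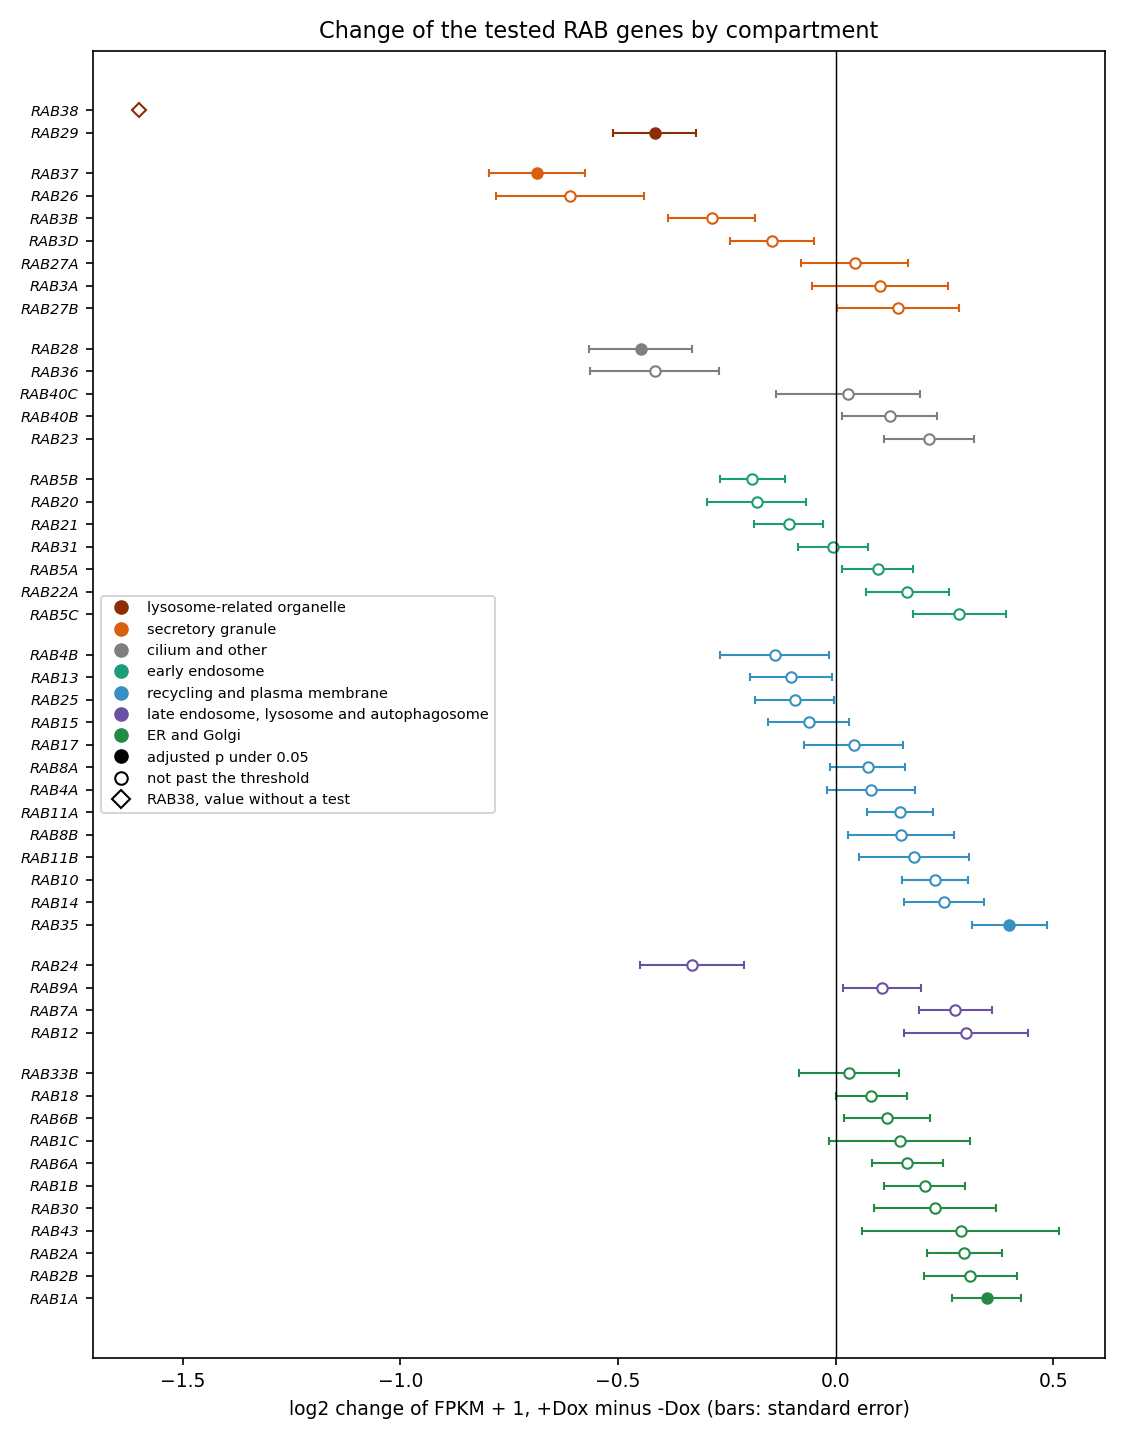
Log2 change of FPKM + 1, with minus without doxycycline, for the 49 tested RAB genes, grouped by compartment. Bars are standard errors from limma, filled points passed an adjusted p of 0.05, open points did not, and RAB38 (diamond, -1.60) is a value without a test. All 11 tested members assigned to the ER and Golgi lie to the right of 0, between 0.03 and 0.35. Of members placed elsewhere that also act at the Golgi, RAB29, RAB36 and RAB31 lie to the left of 0 and RAB14 and RAB9A to the right.

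The secretory granule members hold RAB proteins of regulated exocytosis, and their summed level was lower with doxycycline, at 31.9 ± 0.543 FPKM, against 38.1 ± 1.46 FPKM without. The largest single difference was that of RAB37, a GTPase of secretory granule release (ENSG00000172794, chromosome 17, 74670578 to 74747335). RAB37 was at 2.94, 2.58 and 2.44 FPKM in the libraries with doxycycline, against 4.49, 5.34 and 4.81 FPKM in those without. The groups were well apart, and RAB37 fell by 0.69 on the log2 scale (SE 0.11, limma adjusted p = 0.01). The call was kept in 5 of the 6 leave-one-out fits and lost without replicate 2 of the untreated group (limma adjusted p = 0.055).

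RAB26, which marks secretory granules and targets synaptic vesicles to autophagosomes, was at 2.27, 2.25 and 4.07 FPKM in the libraries with doxycycline, against 4.80, 4.54 and 4.96 FPKM in those without. Replicate 3 with doxycycline was close to the untreated libraries while replicates 1 and 2 were far below them. RAB26 missed the threshold in the test of all 6 libraries (log2 -0.61, SE 0.17, limma adjusted p = 0.0563), and without that replicate its log2 change was -0.82 with a limma adjusted p of 0.00985. Over all leave-one-out fits the adjusted p reached 0.147. With RAB37 and RAB26 set aside, the summed levels of the granule members overlapped between the groups, at 25.9 to 27.0 FPKM with and 26.8 to 29.6 FPKM without doxycycline.

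The RAB3 genes, which encode the GTPases of synaptic and endocrine vesicle release, did not pass the test. RAB3B, the most abundant granule member, was at 8.11 ± 0.84 FPKM with and 10.1 ± 0.364 FPKM without doxycycline, and its groups did not overlap (limma adjusted p = 0.104). RAB3D was at 7.60 ± 0.517 FPKM with and 8.52 ± 0.548 FPKM without doxycycline, and RAB3A at 3.83 ± 0.548 FPKM with and 3.54 ± 0.897 FPKM without doxycycline. RAB3D shares 21.3% of its 50-base words with other genes. RAB27A, which docks granules and melanosomes at the plasma membrane, was at 4.65 ± 0.334 FPKM with and 4.50 ± 0.724 FPKM without doxycycline, and RAB27B, with the largest positive change of the tested granule members, at 1.81 ± 0.301 FPKM with and 1.54 ± 0.285 FPKM without doxycycline (log2 0.14).

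RAB28, a cilium-associated GTPase needed for photoreceptor upkeep, belonged to the members of the cilium and of less settled place (ENSG00000157869, chromosome 4, 13361354 to 13484365). It was at 6.53, 6.48 and 7.65 FPKM in the libraries with doxycycline, against 9.48, 8.60 and 11.3 FPKM in those without. The groups did not overlap, and RAB28 fell by 0.45 on the log2 scale (SE 0.12, limma adjusted p = 0.0479). That call was the weakest of the family and was lost in all 6 leave-one-out fits, with limma adjusted p between 0.0502 and 0.131. The summed level of the compartment overlapped between the groups, at 29.5 ± 2.80 FPKM with and 30.7 ± 0.291 FPKM without doxycycline.

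RAB23, a negative regulator of Hedgehog signalling in the cilium, had the largest positive change of the tested members of that compartment, at 7.89, 8.21 and 9.14 FPKM with doxycycline, against 6.45, 7.16 and 7.75 FPKM without (log2 0.21, limma adjusted p = 0.212). Much of that gene's sequence cannot be assigned to it alone, since 57.3% of its 50-base words also occur in transcripts of BAG2. RAB36, a Golgi and late endosome GTPase, was at 1.07, 1.22 and 1.12 FPKM with doxycycline, against 2.02, 2.25 and 1.35 FPKM without (log2 -0.42, limma adjusted p = 0.105). Its groups did not overlap, though replicate 3 of the untreated group came close to the treated libraries.

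Of the ER and Golgi members, all 11 that were tested had a positive log2 change, between 0.03 and 0.35 with a median of 0.20, where 49.6% of all tested genes were positive. Among the 48 members other than RAB38, these 11 included, 66.7% were positive. By level, 64.3% of all tested genes were positive at 28.9 to 210.7 FPKM, 48.8% at 7.27 to 28.4 FPKM and 41.7% at 1.51 to 7.21 FPKM. Of the 11, 1 passed the test and 3 had groups without overlap, all of them higher. Among all tested genes, 3.69% passed as higher and 17% had groups without overlap in that direction. With the libraries scaled to equal sums, 10 of the 11 were positive and RAB33B was negative. The summed level of all 15 members was 331, 338 and 354 FPKM in the libraries with doxycycline, against 286, 294 and 280 FPKM in those without, a difference of 19.0% of the untreated mean. Without RAB1A the difference of the other members was 14.8%. RAB43, among the 11, shares 80.0% of its 50-base words with other genes, 77.8% with ISY1-RAB43. RAB1C, also among the 11, has a short locus (chromosome 9, 37636688 to 37637293) and shares 15.6% of its words with RAB1B. Its groups overlapped, at 2.55 ± 0.236 FPKM with and 2.25 ± 0.701 FPKM without doxycycline, so it may not count as a separate member. Of the 64 family members, 18 share over 10% with some other gene. Members placed in other compartments also act at the Golgi, so the shared sign holds for the members as assigned here. Among those placed elsewhere, RAB29, RAB36 and RAB31 had negative changes (log2 -0.42, -0.42 and -0.005), and RAB14 and RAB9A positive ones (0.25 and 0.11).

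RAB1A, which tethers ER-derived vesicles to the Golgi, was the ER and Golgi member that rose (ENSG00000138069, chromosome 2, 65070696 to 65130331). It was at 115, 120 and 131 FPKM in the libraries with doxycycline, against 95.8, 98.5 and 92.6 FPKM in those without. Every library with doxycycline was above every library without, replicate 3 by the most, and RAB1A rose by 0.35 on the log2 scale (SE 0.08, limma adjusted p = 0.03). The call was kept without replicate 3 of the treated group and lost in the other 5 leave-one-out fits, with limma adjusted p between 0.0317 and 0.105. Its transcripts share 18.2% of their 50-base words with other genes, 17.9% with CEP68, so part of its value cannot be assigned to it alone.

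The other tested members of the ER and Golgi missed the threshold. RAB2A, which acts in transport between the Golgi and the ER, was at 45.3, 42.8 and 43.8 FPKM with doxycycline, against 32.8, 39.1 and 35.2 FPKM without (log2 0.30, SE 0.09, limma adjusted p = 0.0625). Its closest relative RAB2B was at 14.4 ± 1.34 FPKM with and 11.4 ± 1.17 FPKM without doxycycline (log2 0.31, limma adjusted p = 0.0979). RAB1B was at 54.3 ± 4.04 FPKM with and 47.1 ± 4.03 FPKM without doxycycline, and the retrograde Golgi GTPase RAB6A at 49.4 ± 2.90 FPKM with and 43.9 ± 2.42 FPKM without doxycycline, each with groups that overlapped. RAB1B and RAB6A share 34.0% and 20.1% of their 50-base words with other genes. RAB33B, which binds the autophagy protein ATG16L1 at the Golgi, had the smallest change of the tested ER and Golgi members, at 4.07 ± 0.0942 FPKM with and 3.98 ± 0.57 FPKM without doxycycline.

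**Figure D3:**
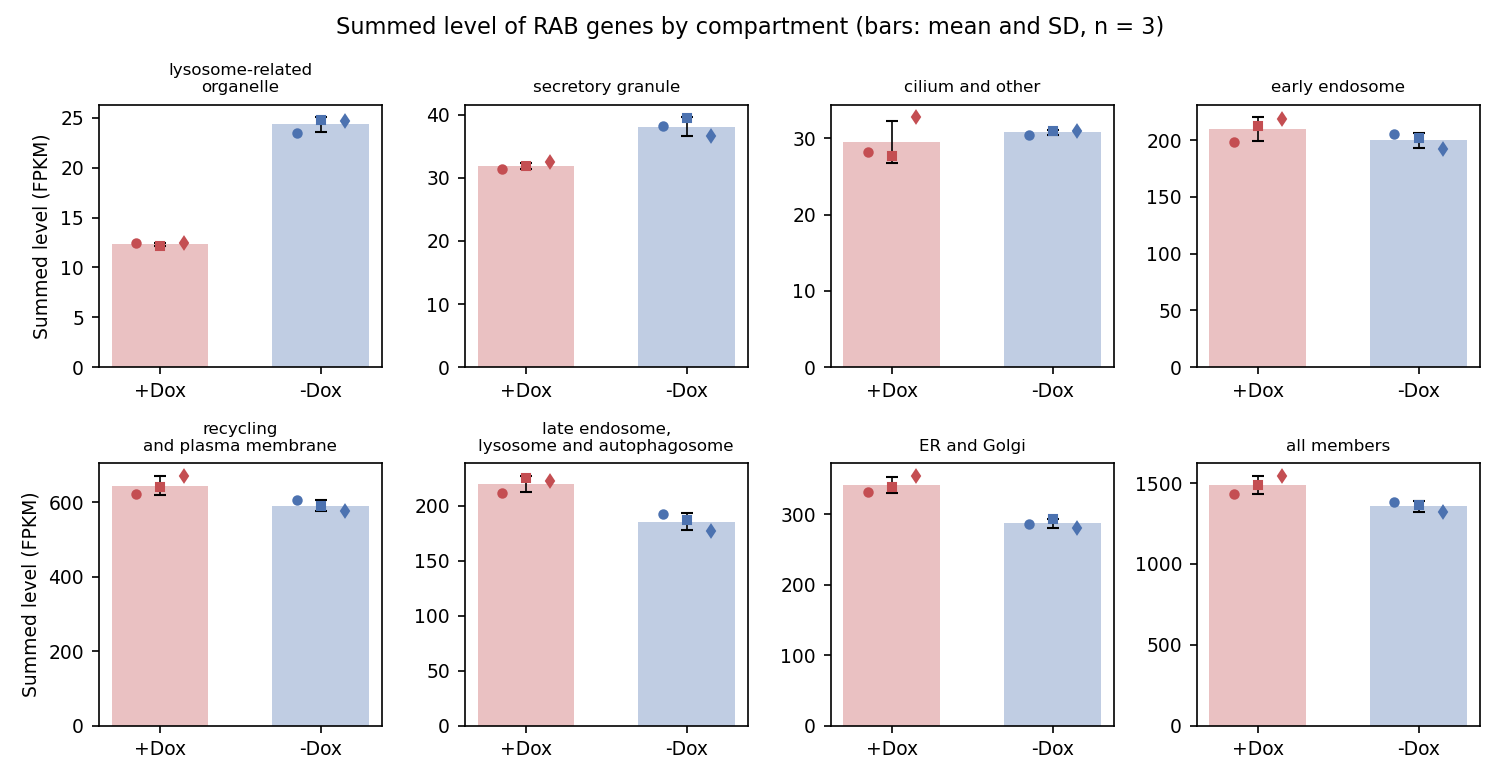
Summed level in FPKM of the RAB genes of each compartment and of all 64, with doxycycline (+Dox, red) left and without (-Dox, blue) right. Bars are means with SD, markers are single libraries (n = 3), and each axis starts at 0. The ER and Golgi sum is higher with doxycycline (341 against 287 FPKM), and that of the secretory granule is lower (31.9 against 38.1 FPKM). The lysosome-related organelle sum (12.3 against 24.3 FPKM) holds RAB38. Without RAB38 it is the level of RAB29 alone (9.10 against 12.5 FPKM), since RAB32 was listed at 0.

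The late endosome, lysosome and autophagosome members rested on RAB7A, which directs late endosomes to lysosomes and was the second most abundant member of the family. RAB7A was at 171, 184 and 174 FPKM in the libraries with doxycycline, against 155, 149 and 133 FPKM in those without. The groups did not overlap, but the change missed the threshold (log2 0.27, SE 0.08, limma adjusted p = 0.0721). The compartment's summed level was 220 ± 7.25 FPKM with doxycycline and 185 ± 8 FPKM without, and RAB7A alone gave 30.5 FPKM of that difference.

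RAB12, a regulator of transferrin receptor degradation, had the largest positive change of the tested members here and groups that overlapped, at 18.7 ± 2.72 FPKM with and 15.1 ± 2.88 FPKM without doxycycline (log2 0.30, limma adjusted p = 0.207). RAB24, an autophagosome GTPase, was at 3.73, 4.30 and 5.00 FPKM with doxycycline, against 6.27, 5.28 and 5.54 FPKM without (log2 -0.33, limma adjusted p = 0.11). Its transcripts share 38.2% of their 50-base words with MXD3, so reads there cannot be assigned from these values. RAB9A, which returns mannose 6-phosphate receptors to the Golgi, was at 20.1 ± 1.28 FPKM with and 18.6 ± 1.27 FPKM without doxycycline.

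Early endosome members had 3 positive and 4 negative changes, and 0 of the 7 passed the limma test (2 at an unadjusted p under 0.05, RAB5C and RAB5B, as had 27.9% of all tested genes). The RAB5 genes, whose products drive early endosome fusion, differed in sign. RAB5C was at 73.5, 81.1 and 86.4 FPKM with doxycycline, against 73.8, 67.4 and 56.8 FPKM without (log2 0.28, limma adjusted p = 0.123), and its lowest treated library lay just below its highest untreated one. RAB5C shares 24.8% of its 50-base words with other genes. RAB5B was at 25.9, 25.9 and 27.4 FPKM with doxycycline, against 30.2, 30.6 and 30.0 FPKM without, with no overlap (log2 -0.19, limma adjusted p = 0.133). The difference between the changes of these genes was not tested. RAB5A was at 29.9 ± 0.493 FPKM with and 27.9 ± 1.87 FPKM without doxycycline, and RAB31, a GTPase of transport from the Golgi to endosomes, at 33.5 ± 1.57 FPKM with and 33.7 ± 1.72 FPKM without doxycycline.

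Of the tested early endosome members, RAB21 is activated by ANKRD27, the effector of RAB38 that fell. RAB21 was at 25.5, 27.7 and 28.5 FPKM with doxycycline, against 30.0, 29.2 and 29 FPKM without. The libraries with doxycycline were all lower by a small margin, and the change did not pass the test (log2 -0.11, limma adjusted p = 0.416).

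The recycling and plasma membrane members made up 43.6% of the family's summed level in untreated cells. Their sum was 622, 642 and 671 FPKM with doxycycline, against 607, 590 and 576 FPKM without. The 13 members were all tested, 9 had a positive and 4 a negative change, and with the libraries scaled to equal sums 8 were positive. As deposited, 49.6% of all tested genes were positive, and 64.3% of those at 28.9 to 210.7 FPKM.

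RAB35, which controls fast recycling and actin remodelling at the plasma membrane, was the recycling member that rose (ENSG00000111737, chromosome 12, 120095099 to 120117502). It was at 25.6, 26.0 and 26.8 FPKM in the libraries with doxycycline, against 21.1, 19.6 and 18.1 FPKM in those without. The spread within each group was small beside the gap, and RAB35 rose by 0.40 on the log2 scale (SE 0.09, limma adjusted p = 0.0251). The call was kept without replicate 3 of the treated group and without replicate 1 of the untreated group, and lost in the other 4 leave-one-out fits, with limma adjusted p up to 0.104. Its transcripts share 13.3% of their 50-base words with AC004812.2, so part of the RAB35 value cannot be assigned to it alone.

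RAB11A, the defining GTPase of recycling endosomes, had the highest level of all 64 members. It was at 209, 219 and 236 FPKM with doxycycline, against 197, 202 and 201 FPKM without, and the groups did not overlap (log2 0.15, limma adjusted p = 0.24). RAB10, which delivers basolateral cargo and glucose transporters, was at 107, 107 and 102 FPKM with doxycycline, against 95.7, 86.7 and 87.1 FPKM without (log2 0.23, limma adjusted p = 0.0911). RAB14, a GTPase between the Golgi and endosomes, was at 30.7 ± 1.92 FPKM with and 25.7 ± 2.26 FPKM without doxycycline (log2 0.25, limma adjusted p = 0.115).

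RAB25, the epithelial member of the RAB11 group, was at 48.8 ± 4.89 FPKM with and 52.0 ± 2.41 FPKM without doxycycline, and its groups overlapped. RAB4B, of the RAB4 pair of fast recycling, had the most negative change of this compartment, at 8.56 ± 1.60 FPKM with and 9.43 ± 0.253 FPKM without doxycycline (log2 -0.14, limma adjusted p = 0.506). RAB8A, which supports transport to the apical surface and the cilium, was at 45.7 ± 2.01 FPKM with and 43.5 ± 3.52 FPKM without doxycycline, and RAB13, a tight junction GTPase, at 37.1 ± 4.45 FPKM with and 39.7 ± 0.751 FPKM without doxycycline. RAB4B, RAB8A and RAB13 share 39.8%, 39.2% and 21.9% of their 50-base words with other genes. Part of each of these values cannot be assigned to the gene alone.

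The promoters of the members that passed the test are shown where the RefSeq table held an entry, which was the case for RAB29, RAB28 and RAB35, as for 50 of the 64 members. Each line gives the 250 bases before the annotated start, in the direction of transcription, on the minus strand of GRCh38.p14, with capitals for matches to the E-box CANNTG or the GC box GGGCGG. The RefSeq starts of RAB28 and RAB35 lie inside the GENCODE loci given above, so their stretches overlap those loci, that of RAB35 wholly.
RAB29, chr1:205775483-205775732: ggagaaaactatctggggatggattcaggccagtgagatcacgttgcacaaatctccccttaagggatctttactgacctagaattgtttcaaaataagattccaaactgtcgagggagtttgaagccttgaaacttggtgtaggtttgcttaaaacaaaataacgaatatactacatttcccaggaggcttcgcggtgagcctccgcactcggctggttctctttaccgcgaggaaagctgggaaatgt
RAB28, chr4:13484341-13484590: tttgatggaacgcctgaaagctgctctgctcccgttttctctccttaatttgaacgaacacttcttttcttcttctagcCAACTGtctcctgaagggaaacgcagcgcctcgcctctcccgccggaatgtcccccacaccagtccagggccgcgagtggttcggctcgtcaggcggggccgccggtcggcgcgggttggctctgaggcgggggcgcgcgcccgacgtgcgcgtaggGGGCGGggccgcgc
RAB35, chr12:120116754-120117003: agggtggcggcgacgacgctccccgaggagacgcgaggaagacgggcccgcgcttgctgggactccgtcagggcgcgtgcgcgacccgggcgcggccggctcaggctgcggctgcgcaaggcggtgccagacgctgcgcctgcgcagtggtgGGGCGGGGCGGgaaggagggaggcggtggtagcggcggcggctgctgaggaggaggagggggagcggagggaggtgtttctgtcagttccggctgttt

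The 3 promoters differed in base composition, with 45.2% G and C in RAB29, 65.6% in RAB28 and 74.4% in RAB35. RAB29 held neither motif, RAB28 held 1 of each, and RAB35 held 2 GC boxes that overlap each other and no E-box. On either strand, the GC box occurred in 39 of the 50 matched members (78%) and in 42.6% of all 35116 promoters of the same length. The E-box occurred in 27 of the 50 (54%) and in 61.8% of all. The median G and C content of the members was 64.8%, against 58% of all promoters. The letters CACGTG, an E-box form, occurred in 10% of the members and 6.34% of all, in RAB4A, RAB5A, RAB21, RAB24 and RAB31. Such matches are descriptions of the sequence and not sites of binding.

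The regulators of the RAB cycle were read from lists of the membrane cycle (the prenylation and GDI genes), the GEFs and the GAPs. Of the 75 tested genes in these lists 0 rose and 4 fell by limma at an adjusted p of 0.05 (2 and 17 did so by an unadjusted p of 0.05), and the median log2 change was -0.06, against -0.003 for all tested genes. The called share was 5.33%, against 8.46% of all tested genes, and 27.9% of all had an unadjusted p under 0.05. The 8 membrane cycle genes had 0 calls (1 higher and 1 lower unadjusted), the 33 GEFs 2 and the 34 GAPs 2.

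Besides ANKRD27, the GEF that fell was GAPVD1, which activates RAB5 and RAB31. GAPVD1 was at 14.3, 14.2 and 11.9 FPKM with doxycycline, against 20.9, 23.6 and 20.2 FPKM without (log2 -0.65, SE 0.10, limma adjusted p = 0.00876). The groups were far apart, and the call was lost by a narrow margin without replicate 2 of the untreated group (limma adjusted p = 0.0501). The GAPs that fell were TBC1D16, a GAP for RAB4A, and TBC1D4 (AS160), a GAP for RAB10 in the control of glucose transporter traffic.

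TBC1D16 was at 7.48, 8.25 and 5.71 FPKM with doxycycline, against 11.6, 11.4 and 9.43 FPKM without (log2 -0.54, SE 0.14, limma adjusted p = 0.0408). TBC1D4 was at 6.39, 6.42 and 5.86 FPKM with doxycycline, against 8.17, 8.21 and 8.28 FPKM without (log2 -0.35, SE 0.09, limma adjusted p = 0.0438). Both genes had groups without overlap. The TBC1D4 call was lost in all 6 leave-one-out fits (limma adjusted p up to 0.154), and the TBC1D16 call in all but the fit without replicate 2 of the treated group (up to 0.137).

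**Figure D4:**
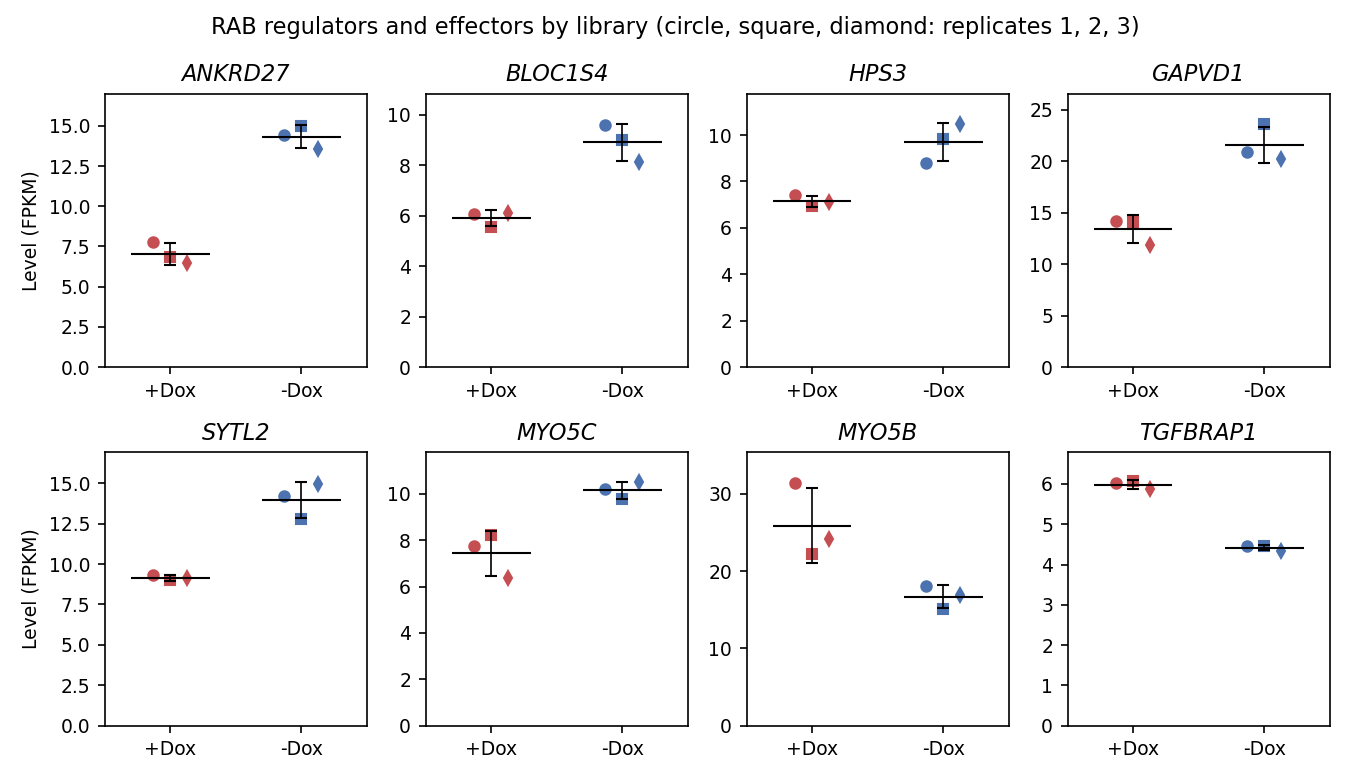
Level in FPKM of 8 RAB regulators and effectors in each library, with doxycycline (+Dox, red) left and without (-Dox, blue) right. Markers are single libraries, lines the mean and bars the SD (n = 3). ANKRD27 has the widest relative gap (7.02 against 14.3 FPKM), and MYO5B and TGFBRAP1 are the genes shown that were higher with doxycycline. The 8 genes are a selection from those that passed the test. Of the 75 tested regulators, the treated libraries were all higher in 7 and all lower in 20. Of the 80 tested effectors, RAB32 and RAB38 genes included, this held for 9 and 15. Among all tested genes 17% and 17.5% were so.

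Of 60 tested genes in the list of RAB effectors and tethers, 2 rose and 2 fell (6.67%, against 8.46% of all tested genes), with a median log2 change of -0.02. Together with the RAB32 and RAB38 genes the list held 80 tested genes, of which 2 rose and 5 fell. SYTL2, which carries RAB27 vesicles to the plasma membrane, was at 9.34, 9 and 9.12 FPKM with doxycycline, against 14.2, 12.8 and 14.9 FPKM without. The treated libraries were nearly equal and all far below the untreated ones. SYTL2 fell by 0.56 on the log2 scale (SE 0.09, limma adjusted p = 0.011) and kept its call in all 6 leave-one-out fits. Its partners RAB27A and RAB27B, given above, did not pass the test.

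The myosin V motors that RAB11A and RAB10 recruit differed in the sign of their change. MYO5B was at 31.4, 22.2 and 24.1 FPKM with doxycycline, against 18.1, 15.1 and 16.9 FPKM without (log2 0.59, SE 0.13, limma adjusted p = 0.0274). MYO5C was at 7.77, 8.22 and 6.36 FPKM with doxycycline, against 10.2, 9.77 and 10.5 FPKM without (log2 -0.41, SE 0.11, limma adjusted p = 0.049). TGFBRAP1, a subunit of the CORVET tether that binds RAB5, was at 6.02, 6.07 and 5.87 FPKM with doxycycline, against 4.47, 4.45 and 4.35 FPKM without (log2 0.37, SE 0.09, limma adjusted p = 0.0415). None of these genes had overlapping groups. The calls of MYO5C and TGFBRAP1 were lost in all 6 leave-one-out fits (limma adjusted p up to 0.127 and 0.143), and that of MYO5B was kept without replicates 2 or 3 of the treated group (up to 0.104).

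The share of positive changes was highest among the most abundant genes, in the family and over all tested genes. The 48 members other than RAB38 were split into 3 equal classes by their mean over all 6 libraries. In the highest class, at 28.9 to 210.7 FPKM, 13 of 16 had a positive log2 change (81.2%), where 64.3% of all tested genes in that range did. In the middle class, at 7.27 to 28.4 FPKM, 8 of 16 did (50%), against 48.8% of all. In the lowest class, at 1.51 to 7.21 FPKM, 11 of 16 did (68.8%), against 41.7% of all. The part of this relation in the sums by compartment was not tested. Summed over all 64 members, the level was 1435, 1490 and 1544 FPKM with doxycycline, against 1384, 1367 and 1318 FPKM without.

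**Figure D5:**
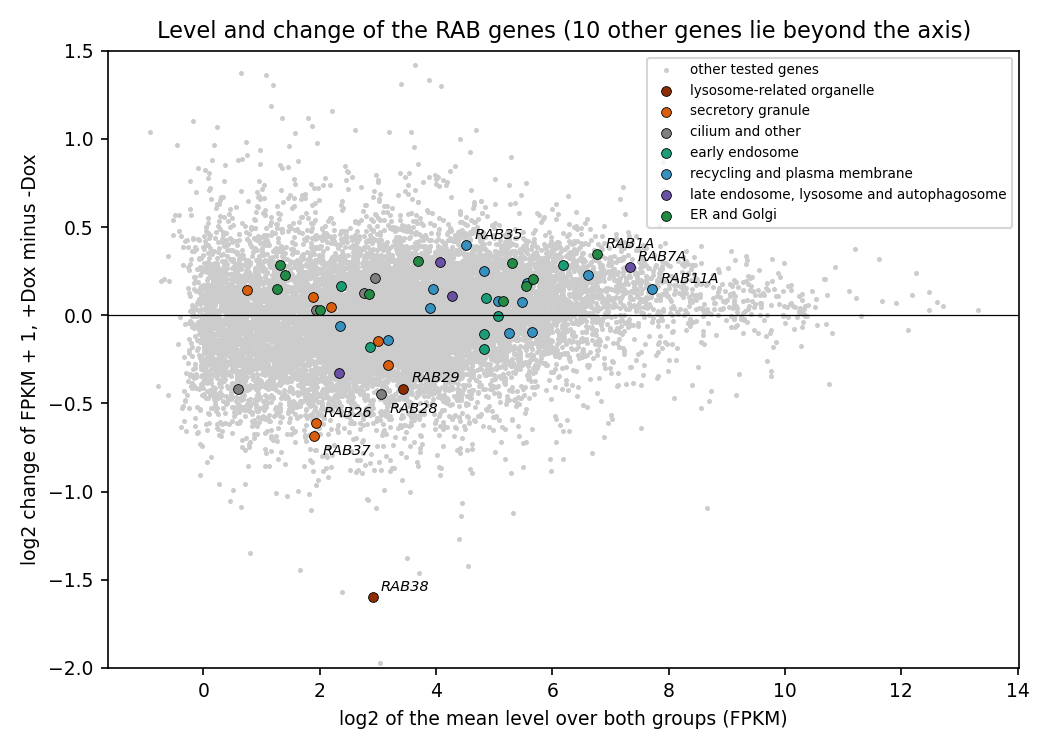
Log2 change of FPKM + 1, with minus without doxycycline, against the log2 of the mean level in FPKM over both groups. Coloured points are the 49 tested RAB genes by compartment and grey points the other tested genes, of which 10 lie beyond the vertical axis. RAB38 lies lowest of the family at -1.60, and 13 of the 16 members in the highest class of level lie above 0.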

How the data were processed

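RNA was measured in 6 bulk libraries, 3 with and 3 without doxycycline. The authors' deposited table holds 60643 genes and was read as FPKM, a unit the header does not name, because values are not whole and the smallest ones of genes with 1 exon shrink with length. Without versions or roles, kallisto, RSEM, Cufflinks, STAR, BWA and Bowtie were listed, with hg19 as the build, per the submitters' processing notes. The tool behind the values, strandedness and depth were not given in the sources used here. Of 39331 identifiers found in GENCODE 29, 39321 have its GRCh38 locus, so coordinates are given on GRCh38, counted from 1. Depth was estimated from the spacing of low values in 3640 single-exon genes. FPKM removes depth and length but not composition, so a change in abundant transcripts moves the rest.

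The 14475 genes that reached 1 FPKM in 3 or more libraries entered limma 3.58.1 (R 4.3.3) as log2(FPKM + 1), with trend and robust options, adjusted by Benjamini-Hochberg over all tested genes at 0.05 and tested on simulated data first. FPKM are not counts, so no count test was run. Summaries and figures used Python 3.11.15, pandas 2.3.3, numpy 2.4.6, scipy 1.17.1 and matplotlib 3.10.9. Shared sequence is the share of a gene's 50-base words, on either strand, found in other genes' GENCODE transcripts. It does not show whether those transcripts were expressed here, or whether the strand of the reads would tell the genes apart. Promoters are from RefSeq (GRCh38.p14).

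The members and lists, the compartments among them, were chosen with earlier results of these data known. Genes were named by a rule: each member past the threshold, the RAB29, RAB32 and RAB38 subfamily, the most abundant and most changed members of each compartment in both directions, and up to 4 genes of each other list past the threshold with the smallest p-values. Other genes described, such as RAB26, RAB2A, RAB10 and the markers PMEL, CD68 and EPCAM, were chosen after their values were seen. Alternatives were other pseudocounts, filters, scalings and variance models, a replicate block, leaving out each library, and a length and GC correction added after seeing the data.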

Additional observations from a re-analysis of the deposited data

How the results depend on the processing

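Under the 15 alternatives, RAB38 kept its sign (log2 -1.84 to -1.57), ANKRD27 its call, and CAPG its fall (without 1 library, log2 -2.68 to -2.53). Counts of calls moved more; the cause was not tested, except that testing without a filter adds genes and leaving out a library removes samples. Over all tested genes (534 higher, 691 lower) there were 53 and 100 without the filter, 354 higher with limma without trend and robust options, 1509 and 1216 with the length and GC correction chosen after seeing the data, and 76 to 412 and 147 to 588 without 1 library. Of the RAB members other than RAB38 (2 and 3), 0 and 0 were called without the filter, 1 higher without trend and robust options, 7 and 5 with the correction, and 0 to 2 and 0 to 2 without 1 library. Regulators (0 and 4) had 1 lower without the filter, 3 and 9 with the correction, and 0 to 0 and 1 to 4 without 1 library. Effectors with the RAB32 and RAB38 genes (2 and 5) had 0 and 1 without the filter, 1 higher with equal sums, 5 higher with the correction, and 0 to 1 and 2 to 4 without 1 library.

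The replicate numbers showed no sign of pairing. The deviations of same-numbered libraries correlated at -0.04 to 0.01, and those of unlike-numbered libraries at -0.09 to 0.10. With few libraries and no label for the origin of the replicates, these values cannot exclude a paired design. With the replicate block, 69 genes were called higher and 142 lower, with 0 and 0 RAB members, 2 lower regulators, and 1 higher and 1 lower effector.

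With equal sums the log2 ratio of summed levels was 0.20 for the ER and Golgi (0.25 as deposited), -1.03 for the lysosome-related organelle (-0.98), 0.072 for recycling (0.13), -0.31 for the granule (-0.26) and 0.081 for all members (0.14). This scaling moved the median of all genes to -0.05. Without 1 library these ratios were 0.22 to 0.27, -1 to -0.97, 0.10 to 0.15, -0.29 to -0.23 and 0.11 to 0.16, and they were 0.04 to 0.11 for the early endosome, 0.21 to 0.27 for the late endosome and -0.14 to -0.01 for the cilium. HPS4 (log2 -0.04) was 0.026 with the correction and 0.042 without replicate 3 with doxycycline (-0.120 to 0.042 without 1 library). RAB26 passed the test under 4 alternatives. Members under about 0.2 FPKM rest on few fragments.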
